A study of Mus musculus with 12 samples.

Results

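The oxidative phosphorylation subunits were taken as the probes whose gene symbol began with Ndufa, Ndufb, Ndufc, Ndufs, Ndufv, Sdha, Sdhb, Sdhc, Sdhd, Uqcr, Cox4i, Cox5, Cox6, Cox7, Cox8 or Atp5. The rule found 81 of the 29922 probes, for 70 of 16675 gene symbols. By symbol, 41 probes belonged to complex I, 5 to complex II, 6 to complex III, 17 to complex IV and 12 to complex V. The prefixes also took in Ndufaf1 and Ndufa12l, assembly factors of complex I, Cox7a2l, a factor of respiratory supercomplexes, and Atp5s and Atp5sl, which carry other symbols in RefSeq. Ndufa4 was counted with complex I by its symbol, although its product is now placed in complex IV. All of these stayed among the 81 members.

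RNA from BALB/c mice was measured on 12 arrays of 1 colour, in 4 groups of 3. The diabetic mcIRBP mice were male and had received 2.5 nmol mcIRBP, an insulin receptor-binding protein of bitter melon, and the diabetic mock mice were male and labelled as untreated. The normal mcIRBP mice were female and had received the same dose, and the normal mock mice were female and untreated. Disease state and sex therefore fell on the same arrays and cannot be told apart. The labels used here give muscle as the tissue, and do not give which muscle, the age of the mice, or how diabetes arose. They also do not say whether the 3 arrays of a group came from 3 mice, so the p-values below measure only the spread between these arrays, which may be technical.

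Oxidative phosphorylation is the last stage of respiration, in the inner mitochondrial membrane. Complexes I and II pass electrons from NADH and succinate to coenzyme Q, complex III hands them to cytochrome c, and complex IV gives them to oxygen. Complexes I, III and IV pump protons as they do so, and complex V, the ATP synthase, makes ATP from their return. Skeletal muscle and brown fat are rich in these subunits, and complex IV exchanges some of its small subunits for muscle and heart isoforms. Most of the subunits are encoded in the nucleus, where the factors NRF1, GABP and the ERR family are known regulators of their genes.

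Promoter windows from RefSeq (mouse build GRCm38.p6, running from 250 bases before to 50 bases after the start of a gene) were held for 59 of the 70 member genes. Motifs were searched on both strands. The NRF1 core GCGCNTGCG, in which N stands for any base, was in the windows of 17 of 59 member genes (28.8%), against 1924 of all 27025 genes with a window (7.12%). The GABP core CCGGAAG was in 14 of 59 (23.7%), against 9.93% of all genes, and the ERR alpha core TCAAGGTCA in 2 of 59 (3.39%), against 0.466% of all genes. A match is a run of letters and no measured binding site.

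Shown here are the windows of 4 members that were lower on diabetic mcIRBP than on diabetic mock arrays, chosen because they differ in these motifs. Capitals mark each match. Cox6a1 (chr5:115348909-115349208, minus strand) holds 3 NRF1 cores and 1 GABP core, Sdhd (chr9:50603800-50604099, minus strand) holds 1 match of each of the 3 motifs, Sdhb (chr4:140961021-140961320, plus strand) holds 1 GABP core, and Cox8b (chr7:140900397-140900696, minus strand) holds none. In Cox6a1 2 of the NRF1 cores overlap, 1 on each strand, and no other match overlaps another.
Cox6a1: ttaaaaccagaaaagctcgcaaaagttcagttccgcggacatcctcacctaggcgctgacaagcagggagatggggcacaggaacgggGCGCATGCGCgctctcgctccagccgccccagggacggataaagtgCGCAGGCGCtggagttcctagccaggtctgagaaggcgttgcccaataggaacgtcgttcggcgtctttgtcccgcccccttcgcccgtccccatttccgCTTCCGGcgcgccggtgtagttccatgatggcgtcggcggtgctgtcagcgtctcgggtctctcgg
Sdhd: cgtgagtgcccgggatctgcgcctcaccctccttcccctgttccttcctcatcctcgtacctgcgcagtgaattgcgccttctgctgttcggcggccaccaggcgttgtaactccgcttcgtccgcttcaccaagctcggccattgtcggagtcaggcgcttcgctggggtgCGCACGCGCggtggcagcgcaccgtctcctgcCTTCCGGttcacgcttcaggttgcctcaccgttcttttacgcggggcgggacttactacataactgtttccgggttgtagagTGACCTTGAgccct
Sdhb: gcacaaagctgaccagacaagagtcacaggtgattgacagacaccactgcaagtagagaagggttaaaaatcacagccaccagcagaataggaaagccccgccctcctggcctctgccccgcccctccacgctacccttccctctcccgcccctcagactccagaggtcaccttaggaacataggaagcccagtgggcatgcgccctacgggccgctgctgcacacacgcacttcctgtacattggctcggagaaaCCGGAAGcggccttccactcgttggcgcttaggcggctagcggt
Cox8b: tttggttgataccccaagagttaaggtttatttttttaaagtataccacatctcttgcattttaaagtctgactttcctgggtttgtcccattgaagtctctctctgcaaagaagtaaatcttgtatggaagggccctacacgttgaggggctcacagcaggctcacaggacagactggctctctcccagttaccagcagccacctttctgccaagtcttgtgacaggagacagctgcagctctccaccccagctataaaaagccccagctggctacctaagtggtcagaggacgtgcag

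A probe was taken as measured on an array where its raw intensity exceeded the floor of that array, the mode of its log2 raw values, by 5 SD of the values mirrored below the mode. Between 4490 and 8080 probes passed this threshold on diabetic mcIRBP arrays, 10220 to 12451 on diabetic mock arrays, 4731 to 8248 on normal mcIRBP arrays and 2488 to 3824 on normal mock arrays. The floor lay at a raw intensity of 38.3 to 39.8 on the diabetic arrays and 57.0 to 94.4 on the normal arrays. This difference between arrays falls with disease state and sex and cannot be told apart from them. Across probes, arrays within a group correlated with a mean Pearson r of 0.950 for diabetic mcIRBP, 0.984 for diabetic mock, 0.880 for normal mcIRBP and 0.902 for normal mock. The tissue label was set against marker lists. Of 32 skeletal muscle markers, 6 were above the threshold on all 3 diabetic mcIRBP arrays, 11 on all 3 diabetic mock arrays, 3 on all 3 normal mcIRBP arrays and 1 on all 3 normal mock arrays. Ckm, Mb and Myh4, which encode muscle creatine kinase, myoglobin and a fast myosin heavy chain, were below it on all 6 diabetic arrays, and among the 6 normal arrays Ckm was above it on 2 normal mcIRBP and 2 normal mock arrays. Acta1, skeletal muscle actin, was above it on 0 diabetic mcIRBP, 2 diabetic mock, 3 normal mcIRBP and 3 normal mock arrays. Tnnc1, Tpm1, Tpm2, Des and Myh1 were above it on all 6 diabetic arrays. All 21 epididymis markers were above it on every diabetic mcIRBP array, with a summed intensity of 104475 to 112027, against 3453 to 3639 on diabetic mock arrays, 1192 to 1285 on normal mcIRBP arrays and 1271 to 1326 on normal mock arrays. The 24 adipose markers summed to 10915 to 12217 on diabetic mcIRBP arrays, against 81569 to 82751 on diabetic mock arrays, 89462 to 105804 on normal mcIRBP arrays and 59480 to 69550 on normal mock arrays. The 25 liver markers summed to 5387 to 5740 on diabetic mcIRBP arrays and 24041 to 27170 on diabetic mock arrays, and to 14664 to 18135 on normal mcIRBP arrays and 88683 to 99314 on normal mock arrays. In such bulk samples, fewer cells of a type and less RNA per cell cannot be told apart. Since 15 to 22 of the 32 skeletal muscle markers were below the threshold on every array of a group, and epididymis, adipose and liver markers differed between groups, the libraries are named below by their labels and not as muscle.

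**Figure D1:**
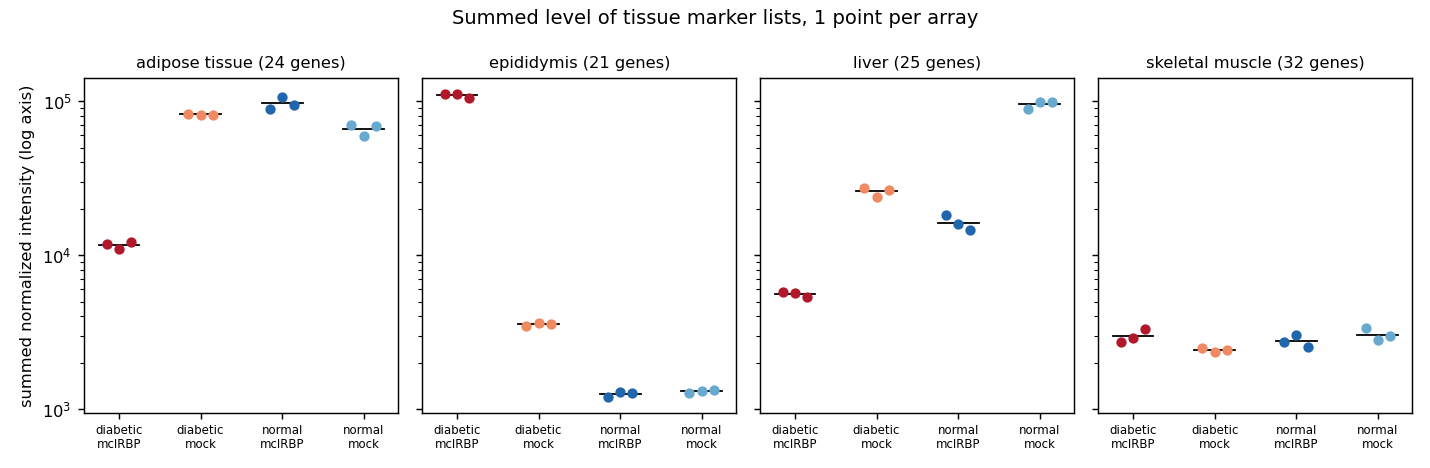
Summed normalized intensity (log axis) of the marker lists of 4 tissues, 1 point per array, with a line at the group mean. Epididymis markers are high on the 3 diabetic mcIRBP arrays, adipose markers are low on the same arrays, liver markers are highest on normal mock arrays, and skeletal muscle markers sum to 2340 to 3360 on every array.

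Of the 81 members, 46 were above the threshold on all 12 arrays, 30 on some, and 5 on none. These 5 were Uqcrq, a small subunit of complex III, and the complex IV isoforms Cox4i2, Cox6a2, Cox7b2 and Cox8c. Levels are given as log2 of normalized intensity, on which the median over all probes was 5.88 to 5.91. Levels of different members are not compared as amounts of RNA, since probes differ in brightness. The mean over all 81 members was 8.19, 8.17 and 7.96 on diabetic mcIRBP arrays and 8.64, 8.70 and 8.65 on diabetic mock arrays, so these groups did not overlap. It was 8.35, 8.22 and 8.32 on normal mcIRBP arrays and 8.27, 8.12 and 8.35 on normal mock arrays, which did overlap. The mean over all probes was 6.23 on every array, since quantile normalization fixes it.

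**Figure D2:**
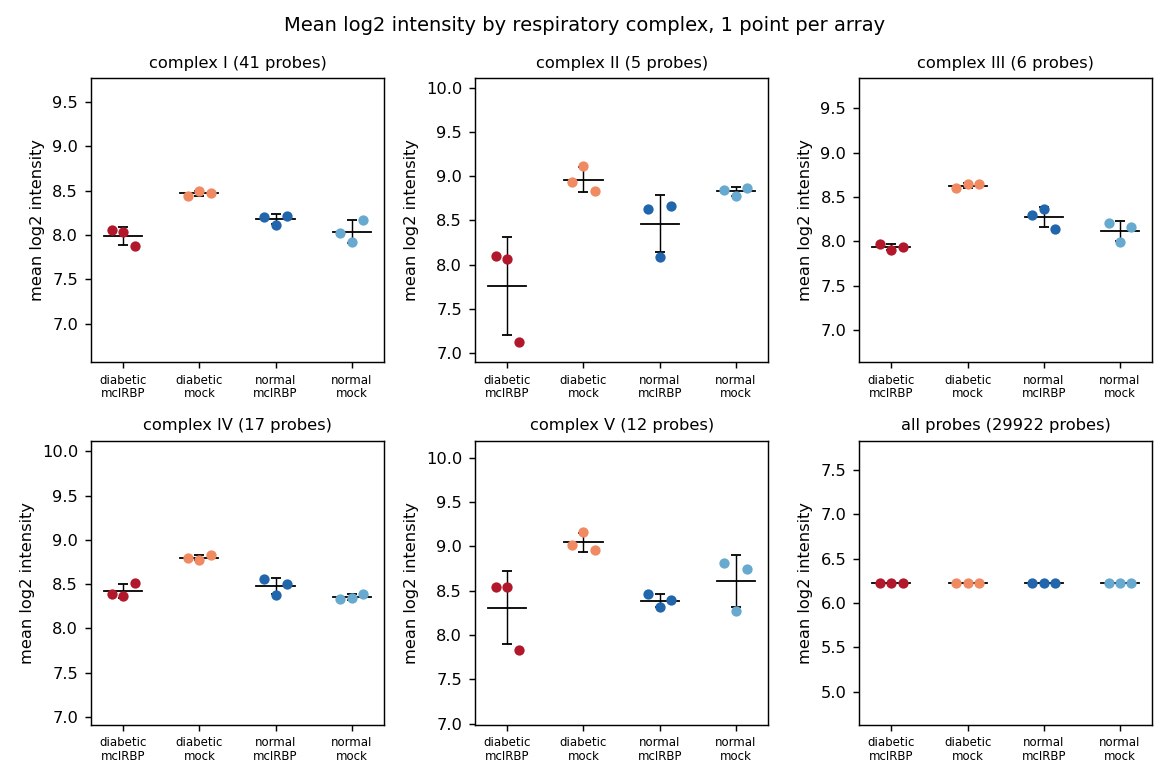
Mean log2 normalized intensity over the probes of each respiratory complex, and over all probes, for each array (points), with the group mean and SD (lines, n = 3). In each of the 5 complexes the diabetic mcIRBP arrays lie below the diabetic mock arrays, and the third diabetic mcIRBP array is lowest of its group in complexes I, II and V. All panels span the same range of log2 units.

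In diabetic mice, most members had lower values with mcIRBP, and the median change was lowest in complex II, which joins the citric acid cycle to the respiratory chain. A member was called where the adjusted p of limma (Benjamini-Hochberg over all 29922 probes) was under 0.05. By this rule 8 of the 81 members fell in diabetic mcIRBP against diabetic mock, against 3.04% of all probes that fell, and 0 rose, against 3.72% of all probes. At an unadjusted p under 0.05 there were 34 members, in either direction, against 15.3% of all probes. The median log2 fold change of the members was -0.54 (quartiles -0.94 and -0.15), against 0.01 for all probes. The change was below 0 for 69 of 81 members (85.2%), against 43.3% of all probes. On 50 members every diabetic mcIRBP array lay below every diabetic mock array, against 17.3% of all probes, and on 5 every one lay above, against 18.1%. Of all probes 15878 were above the threshold on no array, against 5 of the 81 members. Among the 10883 probes above the threshold on at least 3 arrays, fitted alone, 13 of 72 members fell, against 9.57% of these probes, and 0 rose, against 9.07%. In the common fit the change was below 0 for 87.5% of these members and 57.2% of these probes. Every diabetic mcIRBP array lay below every diabetic mock array on 49 of these members and 3424 of these probes.

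These p-values used 1 estimate of the spread over all 4 groups, and the normal arrays varied more. Fitted on the 6 diabetic arrays alone, 36 members fell, against 8.45% of all probes, and 3 rose, against 5.69%. The fold changes were the same in both fits, and the adjusted p of single members moved in both directions. In the same comparison 21 of 24 adipose markers (median -2.54), 5 of 8 macrophage markers (median -0.66) and 4 of 25 liver markers (median -0.02) fell. By contrast 21 of 21 epididymis markers rose (median 4.63). Of 32 skeletal muscle markers 3 rose and 1 fell (median 0.03). The part of these lists in the fall of the members was not tested.

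**Figure D3:**
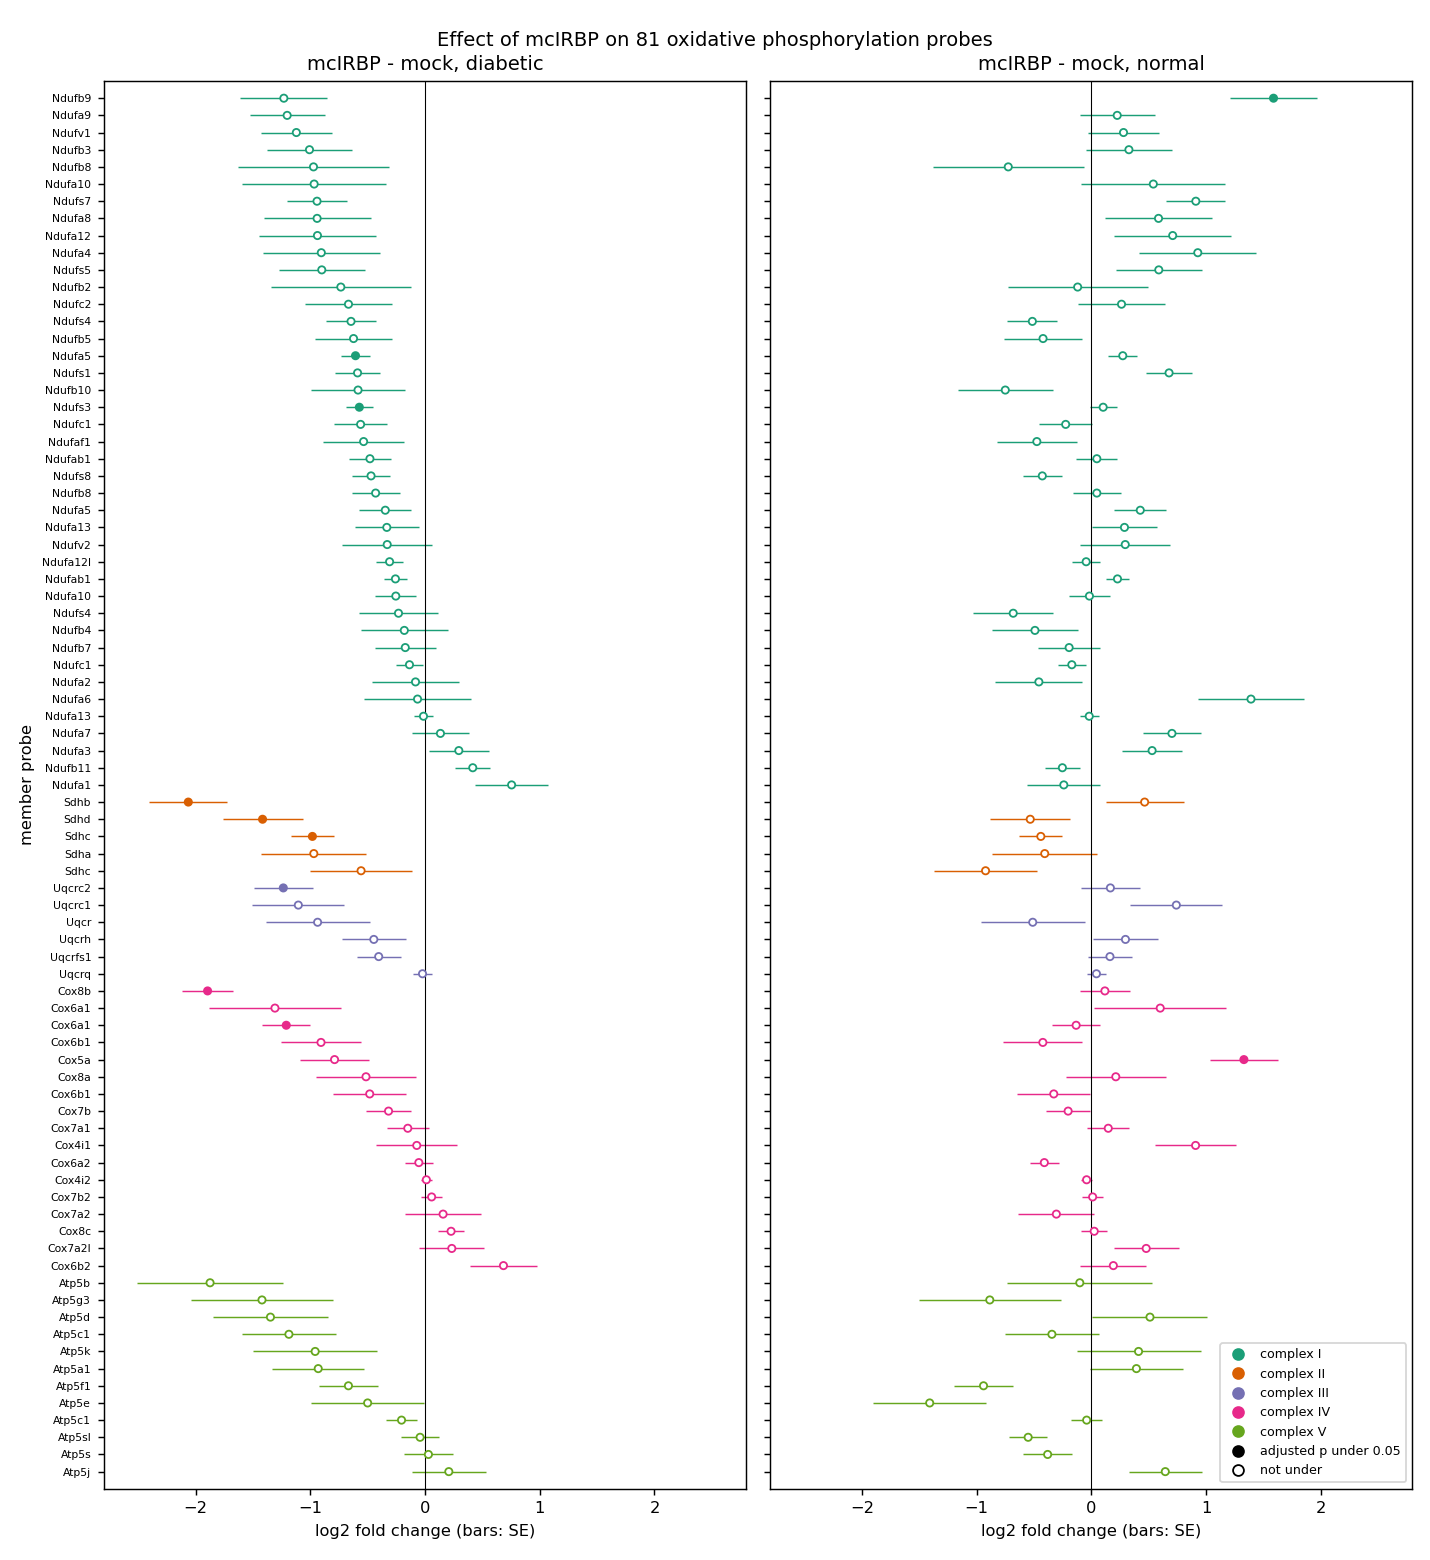
Log2 fold change of each of the 81 member probes (points) with its SE (bars), mcIRBP minus mock, in diabetic mice (left) and normal mice (right), ordered by complex and by the change in diabetic mice. Filled points have an adjusted p under 0.05. On the left 69 of 81 points lie below 0, and on the right 38 of 81.

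Succinate dehydrogenase, or complex II, holds the flavoprotein Sdha, the iron-sulfur protein Sdhb, and the membrane anchors Sdhc and Sdhd. In the diabetic comparison 3 of its 5 probes fell, and all 5 had a change below 0 (median -0.98). Sdhb stood at 8.31, 8.07 and 7.04 on diabetic mcIRBP arrays, against 9.78, 10.00 and 9.83 on diabetic mock arrays. The groups did not overlap, and the third diabetic mcIRBP array was the lowest. The change was -2.06 (SE 0.34, adjusted p = 0.00417), or 4.18-fold lower. On the third diabetic mcIRBP array 4490 of all probes passed the threshold, against 8080 and 7749 on the first and second. Without this array the median of complex II was -0.81.

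Sdhd stood at 7.98, 8.07 and 6.43 on diabetic mcIRBP arrays, against 8.88, 9.01 and 8.84 on diabetic mock arrays. The third diabetic mcIRBP array was again lowest, and there the probe was below the threshold. Sdhd fell by 1.42 (SE 0.35, adjusted p = 0.0383), but its adjusted p was 0.12 in the fit of the 6 arrays. Sdhc had 2 probes. On the called one it stood at 8.04, 7.94 and 7.45 on diabetic mcIRBP arrays and 8.77, 8.75 and 8.85 on diabetic mock arrays, a change of -0.98 (SE 0.19, adjusted p = 0.00954). On its other probe the change was -0.56 (SE 0.45, adjusted p = 0.773), with groups that did not overlap either. Sdha stood at 7.43, 7.34 and 6.12 on diabetic mcIRBP arrays, against 7.90, 8.26 and 7.63 on diabetic mock arrays, a change of -0.97 that did not pass the test (adjusted p = 0.369).

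**Figure D4:**
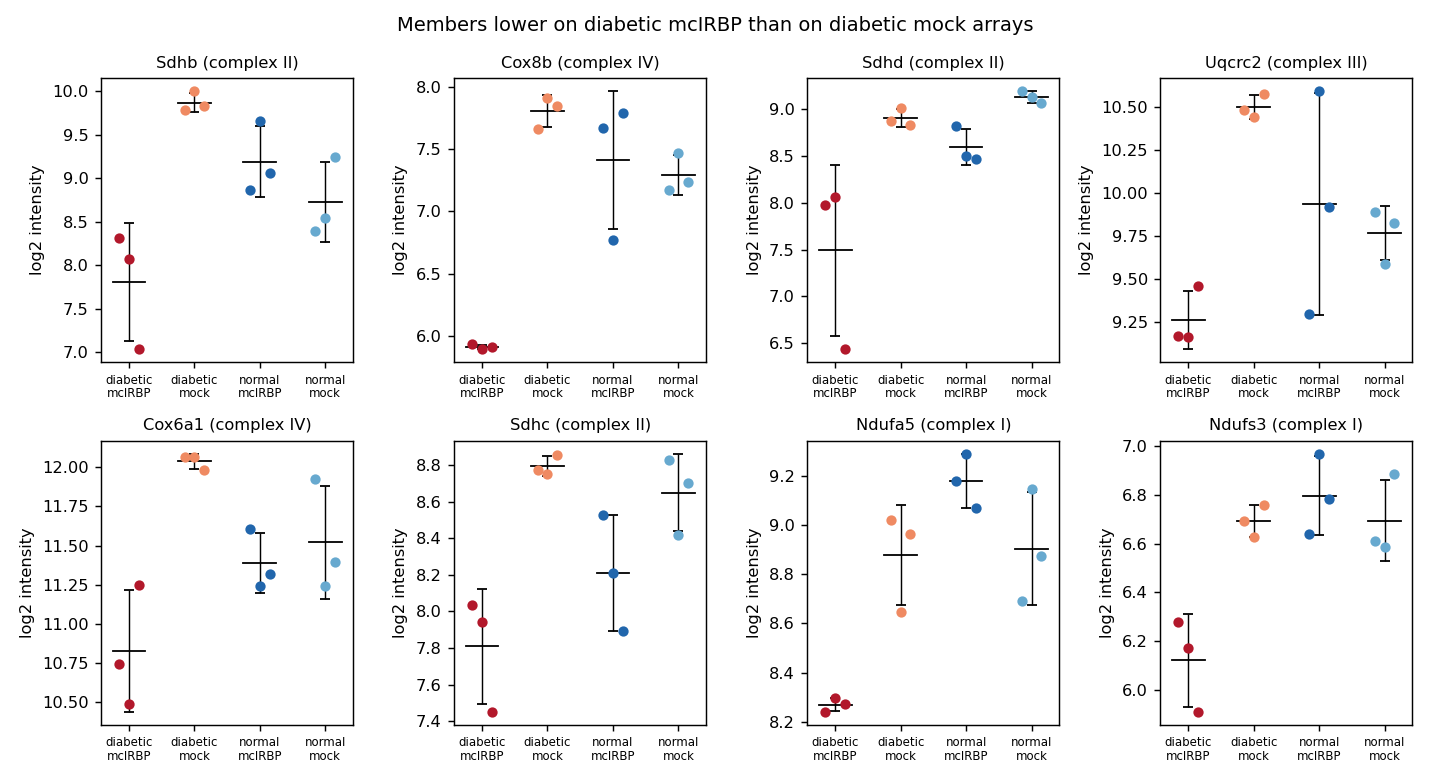
Log2 normalized intensity of the 8 probes called lower in diabetic mcIRBP than in diabetic mock mice, by array (points), with the group mean and SD (lines, n = 3). Each panel has its own axis. In every panel the 3 diabetic mcIRBP arrays lie below the 3 diabetic mock arrays, and Cox8b is at 5.89 to 5.93 on diabetic mcIRBP arrays, below its threshold.

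Complex IV, cytochrome c oxidase, held the member with the lowest adjusted p. Cox8b, the muscle and heart isoform of subunit VIII in the mouse, stood at 5.93, 5.89 and 5.91 on diabetic mcIRBP arrays, against 7.66, 7.91 and 7.84 on diabetic mock arrays. It was below the threshold on all 3 diabetic mcIRBP arrays, so the fall is a bound, at least 2.64-fold lower (adjusted p = 0.000429). Cox8a, the ubiquitous form of the same subunit, stood at 11.55, 11.51 and 12.01 on diabetic mcIRBP arrays, against 12.19, 12.14 and 12.28 on diabetic mock arrays, and its change of -0.51 (SE 0.44) did not pass the test (adjusted p = 0.804). Whether the changes of the isoforms differ was not tested.

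Cox6a1, the ubiquitous form of subunit VIa, stood at 10.74, 10.49 and 11.25 on diabetic mcIRBP arrays, against 12.06, 12.06 and 11.98 on diabetic mock arrays. This probe fell by 1.21 (SE 0.21, adjusted p = 0.00575). The gene's other probe changed by as much, -1.31, but with a larger SE of 0.58 (adjusted p = 0.314), and its normal mock arrays stood at 11.55, 8.76 and 11.18. Cox6a2, its muscle and heart form, was below the threshold throughout. Cox7a1, the muscle and heart form of subunit VIIa, changed by -0.15 (adjusted p = 0.956) near the floor, and Cox7a2, the form found in most tissues, by 0.16 (adjusted p = 1).

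Cox4i1, the common form of the regulatory subunit IV, stood at 11.75, 11.44 and 12.19 on diabetic mcIRBP arrays and 11.68, 11.73 and 12.19 on diabetic mock arrays. These groups overlapped, with a change of -0.07 (SE 0.35, adjusted p = 1). Complex IV as a whole had 2 of 17 probes that fell and a median of -0.15, the median nearest 0 of the 5 complexes, with 11 of 17 below 0. Without the second or the third diabetic mcIRBP array it was -0.25 or -0.27. Cox6b2, a testis isoform of subunit VIb, ran the other way. It stood at 7.80, 8.13 and 8.53 on diabetic mcIRBP arrays and 7.66, 7.17 and 7.56 on diabetic mock arrays, without overlap, but the change of 0.68 (SE 0.29) did not pass the test (adjusted p = 0.28).

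Complex III takes electrons from coenzyme Q. All 6 of its probes had a change below 0 (median -0.69), and 1 fell. Uqcrc2, a core protein of the complex, stood at 9.17, 9.17 and 9.46 on diabetic mcIRBP arrays, against 10.48, 10.44 and 10.58 on diabetic mock arrays, a change of -1.24 (SE 0.26, adjusted p = 0.0161). The groups lay apart by more than their spread. Its partner core protein Uqcrc1 stood at 7.80, 7.83 and 7.74 on diabetic mcIRBP arrays, against 9.05, 8.88 and 8.75 on diabetic mock arrays, a change of -1.10 that did not pass in the common fit (adjusted p = 0.183) and passed in the fit of the 6 diabetic arrays (adjusted p = 0.000819). The Rieske iron-sulfur protein Uqcrfs1 was below the threshold on the 3 diabetic mcIRBP arrays and above it on the 3 diabetic mock arrays, and at least 1.04-fold lower by the bound, which did not pass the test (adjusted p = 0.37). Uqcrh, the hinge protein, changed by -0.45 (adjusted p = 0.603).

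Complex I, NADH dehydrogenase, is the largest complex, and 37 of its 41 probes had a change below 0 (median -0.54), of which 2 fell. Ndufa5, an accessory subunit, stood at 8.24, 8.30 and 8.27 on diabetic mcIRBP arrays, against 9.02, 8.64 and 8.96 on diabetic mock arrays, a change of -0.61 (SE 0.12, adjusted p = 0.0156). Its other probe changed by -0.35 (adjusted p = 0.634). Ndufs3, a core subunit of the arm that reaches into the matrix, stood at 6.28, 6.17 and 5.91 on diabetic mcIRBP arrays, against 6.69, 6.63 and 6.76 on diabetic mock arrays, a change of -0.57 (SE 0.12, adjusted p = 0.0161). It was above the threshold on 1 of 3 diabetic mcIRBP arrays and on 3 of 3 diabetic mock arrays.

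Among the other core subunits of complex I, Ndufv1, which binds NADH and FMN, stood at 8.83, 8.56 and 9.09 on diabetic mcIRBP arrays and 9.85, 9.87 and 10.13 on diabetic mock arrays. Its change of -1.12 (SE 0.31) lay just outside the threshold (adjusted p = 0.0629). Ndufs1, the largest iron-sulfur subunit, changed by -0.59 (adjusted p = 0.146). The accessory subunits Ndufa2 and Ndufb4 changed by -0.08 and -0.18 (adjusted p = 1 for both), with groups that overlapped. Ndufa1, an accessory subunit of the membrane arm, stood at 10.10, 10.30 and 10.11 on diabetic mcIRBP arrays, against 9.47, 9.28 and 9.48 on diabetic mock arrays. It was higher without overlap, but its change of 0.75 (SE 0.32) did not pass the test (adjusted p = 0.281). It passed in the fit of the 6 diabetic arrays (adjusted p = 0.0034).

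In complex V, the ATP synthase, 10 of 12 probes had a change below 0 (median -0.80) and none fell in the common fit of limma. Without the third diabetic mcIRBP array this median was -0.41. Atp5b, the catalytic beta subunit, stood at 10.61, 10.74 and 10.63 on diabetic mcIRBP arrays, against 12.60, 12.54 and 12.46 on diabetic mock arrays. The change was -1.87, against an SD of 0.07 within each group. The call depended on the fit. The normal mock arrays of Atp5b were at 10.95, 9.37 and 12.31, and with this spread in the common estimate the SE was 0.63 (adjusted p = 0.143), while the 6 diabetic arrays alone gave an adjusted p of 4.58e-05. Atp5a1, the alpha subunit, stood at 9.44, 9.24 and 8.04 on diabetic mcIRBP arrays, against 9.96, 10.01 and 9.55 on diabetic mock arrays, a change of -0.93 (adjusted p = 0.298). Atp5c1, the gamma subunit, changed by -1.19 (adjusted p = 0.154) on the probe that was above the threshold on all arrays.

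In normal mice, the changes of the members with mcIRBP lay on both sides of 0. Against normal mock, 2 members rose, against 3.46% of all probes, and 0 fell by limma, against 2.71%. At an unadjusted p under 0.05 there were 15 members, against 21.4% of all probes. The median change was 0.05, and 38 of 81 members lay below 0, against 51% of all probes. With arrays scaled to a common median in place of quantile normalization, the members' median was 0.69 in this comparison and -1.37 in the diabetic one. On 5 members the normal mcIRBP arrays all lay above the normal mock arrays, against 10.4% of all probes, and on 5 they all lay below, against 8.3%. The medians by complex were 0.10 for I, -0.44 for II, 0.16 for III, 0.03 for IV and -0.22 for V.

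Cox5a, the subunit Va of cytochrome c oxidase, stood at 8.55, 9.63 and 8.65 on normal mcIRBP arrays, against 7.27, 7.35 and 8.22 on normal mock arrays. It rose by 1.33 (SE 0.30, adjusted p = 0.0266), without overlap. Ndufb9, an accessory subunit of complex I, stood at 7.16, 7.72 and 8.09 on normal mcIRBP arrays, against 6.52, 5.84 and 5.84 on normal mock arrays. It was below the threshold on all normal mock arrays and at least 1.42-fold higher with mcIRBP (adjusted p = 0.0363). Neither call was made in the fit of the 6 normal arrays, in which 0 members rose, against 0.535% of all probes, and 0 fell, against 1.3%. In the same comparison 22 of 25 liver markers fell (median -4.30) and 4 of 8 macrophage markers rose (median 0.65). Of 32 skeletal muscle markers 5 fell and 1 rose (median -0.11), and of 24 adipose markers 4 rose and 2 fell (median 0.23). The part of these lists in these values was not tested. Complex II had 4 of 5 changes below 0 here as well, none of which passed: Sdhb changed by 0.47, Sdha by -0.41, Sdhd by -0.53, and Sdhc by -0.92 and -0.44.

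The difference between the mcIRBP effects, diabetic minus normal, was tested in the same model. It was below 0 and called for 9 members, against 4.84% of all probes, and above 0 and called for 0, against 4.27%. At an unadjusted p under 0.05 there were 24 members, against 21.1% of all probes. The median difference was -0.53, against 0.03 for all probes. Among the 10883 probes above the threshold on at least 3 arrays, 1352 were called below 0, with 9 of the 72 members there. The share of members called there lies near that of these probes. The medians were -0.20 for these probes and -0.57 for these members. The 9 were Ndufb9 (-2.82), Sdhb (-2.53), Cox5a (-2.12), Cox8b (-2.01), Ndufs7 (-1.85), Uqcrc2 (-1.40), Ndufs1 (-1.27), Ndufa5 (-0.88) and Ndufs3 (-0.68). They include core subunits of complex I (Ndufs1, Ndufs3 and Ndufs7), the iron-sulfur subunit of complex II, a core protein of complex III, and nuclear-encoded small subunits of complex IV. None was in complex V.

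For Ndufs7, an iron-sulfur subunit near the coenzyme Q site, neither effect passed alone. Its change with mcIRBP was -0.94 in diabetic mice (adjusted p = 0.062) and 0.91 in normal mice (adjusted p = 0.0719), and the difference passed (SE 0.36, adjusted p = 0.00991). It stood at 8.63, 8.41 and 8.30 on diabetic mcIRBP arrays and 9.20, 9.60 and 9.37 on diabetic mock arrays. On normal mcIRBP arrays it stood at 8.81, 9.89 and 9.48, and on normal mock arrays at 8.11, 8.56 and 8.77. The mcIRBP arrays were thus lower in diabetic mice and higher in normal mice, without overlap in either. For Cox8b, Ndufb9, Ndufs1 and Ndufs3, a group lay below the threshold, so the differences are fitted values and no bounds.

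Among mock mice, diabetic against normal, 5 members rose, against 4.57% of all probes, and 0 fell, against 3.82%. At an unadjusted p under 0.05 there were 26 members, against 25.8% of all probes. The median was 0.26, against -0.02 for all probes, and with median scaling the members' median was 2.04. On 33 members the diabetic mock arrays all lay above the normal mock arrays, against 19.1% of all probes, and on 6 below, against 18.7%. Among the 10883 probes above the threshold on at least 3 arrays, 1195 rose, with 5 of the 72 members there. The share of members that rose there is not above that of these probes. The medians were 0.18 for these probes and 0.34 for these members. On 3533 of these probes and 33 of these members the diabetic mock arrays all lay above the normal mock arrays. Disease state, sex and the raw floor of the arrays cannot be told apart in these values. Of 25 liver markers 22 fell and 2 rose in the same comparison (median -4.10). There 11 of 21 epididymis markers (median 0.94) and 5 of 8 macrophage markers (median 0.85) rose, and 8 of 32 skeletal muscle markers fell and 1 rose (median -0.11). Of 24 adipose markers 3 rose and 4 fell (median 0.52). The part of these markers was not tested. Fitted on the 6 mock arrays alone, 13 members rose, against 6.28% of all probes, and 1 fell, against 3.07%.

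Cox5a stood at 9.88, 9.84 and 9.92 on diabetic mock arrays, against 7.27, 7.35 and 8.22 on normal mock arrays, and rose by 2.26 (SE 0.30, adjusted p = 0.00118). Cox4i1, at 11.68, 11.73 and 12.19 on diabetic mock arrays, against 9.73, 10.30 and 10.73 on normal mock arrays, rose by 1.61 (SE 0.35, adjusted p = 0.0213). Both encode subunits of cytochrome c oxidase, and for both the groups did not overlap. In complex I, Ndufb9 was at least 2.28-fold higher (adjusted p = 0.00543), and Ndufb3, an accessory subunit of the membrane arm, rose by 1.67 (SE 0.37, adjusted p = 0.023). Ndufs1 was below the threshold on all normal mock arrays and above it on all diabetic mock arrays (adjusted p = 0.0101), and no fold is given for it.

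Among mcIRBP mice, diabetic against normal, 6 members fell, against 5.6% of all probes, and 1 rose, against 5.99%. These shares lie near the background, and the median was -0.12. At an unadjusted p under 0.05 there were 20 members, against 24.3% of all probes. On 16 members the diabetic mcIRBP arrays all lay below the normal mcIRBP arrays, against 17.8% of all probes, and on 2 above, against 15.2%. Cox8b was at least 2-fold lower (adjusted p = 0.00166) and Ndufa5 fell by 0.91 (adjusted p = 0.00109) on the probe called above. Sdhb fell by 1.39 (adjusted p = 0.0268), Ndufs7 by 0.94 (adjusted p = 0.0421) and Ndufs3 by 0.68 (adjusted p = 0.00466). Ndufab1, the mitochondrial acyl carrier protein, was called lower on 1 of its 2 probes (adjusted p = 0.0348), near the floor. Cox6b2, the testis isoform, was the one that rose, with 7.80, 8.13 and 8.53 on diabetic mcIRBP arrays against 6.96, 7.30 and 6.93 on normal mcIRBP arrays. The change was 1.09 (SE 0.29, adjusted p = 0.0376). The calls of Sdhb and Ndufs7 were each lost under 7 of 14 alternatives, among them the fit of the 6 mcIRBP arrays, and those of Cox6b2 and Ndufab1 under 6 of 14. In the same comparison 21 of 21 epididymis markers rose (median 5.89), and 20 of 24 adipose (median -2.60) and 5 of 8 macrophage markers (median -0.64) fell. Of 32 skeletal muscle markers 5 rose and 5 fell (median -0.02), and of 25 liver markers 1 rose and 4 fell (median -0.04). The part of these lists in these values was not tested.

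Other genes of the pathway were counted on lists that hold none of the members. In diabetic mcIRBP against diabetic mock, 5 of 14 electron carriers and coenzyme Q genes fell and 0 rose (median -0.51), set against the same 3.04% and 3.72% of all probes. These shares are a low background here, since each list gene was taken by its brightest probe. With 1 probe per gene, 766 of 16675 probes fell and 926 rose. Among probes above the threshold on at least 3 arrays, 9.57% fell and 9.07% rose. Etfa, Etfb and Etfdh, which pass electrons from fatty acid oxidation to coenzyme Q, changed by -2.23 (adjusted p = 0.0109), -1.49 (adjusted p = 0.0459) and -1.55 (adjusted p = 0.026). Coq6 and Coq9, of coenzyme Q synthesis, changed by -1.32 (adjusted p = 0.00386) and -0.91 (adjusted p = 0.00236). Of 20 assembly factors 3 fell (Atpaf2, Foxred1 and Ecsit) and 0 rose, and of 71 genes of the mitochondrial ribosome 2 fell and 1 rose. Of 10 genes of energy exchange 1 rose: Atpif1, which encodes an inhibitor of the ATP synthase, was at 9.96 ± 0.19 on diabetic mcIRBP arrays and 8.28 ± 0.05 on diabetic mock arrays (SD, n = 3 each), a change of 1.69 (SE 0.23, adjusted p = 0.00135). None of 15 regulators of mitochondrial biogenesis was called, and Ppargc1a, the coactivator PGC-1 alpha, was below the threshold on all 12 arrays.

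In normal mice the same lists gave few calls, where 3.46% of all probes rose and 2.71% fell. By limma 0 of 14 electron carriers, 0 of 20 assembly factors and 0 of 10 genes of energy exchange were called, 1 of 15 regulators fell (Polrmt, the mitochondrial RNA polymerase, by 0.40), and 2 of 71 mitochondrial ribosome genes rose (Mrpl54 and Mrpl9). The difference between the effects was called above 0 for Atpif1 (2.12, adjusted p = 0.00247) and below 0 for Etfa (-2.40, adjusted p = 0.0365), Coq6 (-1.72, adjusted p = 0.00546) and Coq9 (-0.92, adjusted p = 0.0149). It was also called below 0 for 4 of 71 mitochondrial ribosome genes, which were Mrps15, Mrpl1, Mrpl54 and Mrpl9. Of all probes, 4.84% were called below 0 for the difference and 4.27% above 0.

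Of the 8 probes that fell in diabetic mice, 6 genes had a promoter window: Cox6a1, Cox8b, Ndufa5, Ndufs3, Sdhb and Sdhd. The NRF1 core was in 3 of these 6, the GABP core in 4 and the ERR alpha core in 1, against 17, 14 and 2 of all 59 member genes with a window. Cox8b, whose adjusted p was the lowest of the members, was the 1 gene of the 6 without a match in its window, printed above.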

How the data were processed

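Per the labels, 5 ug of total RNA per array was amplified and labelled with Cy5. Each deposited array file holds a raw and a normalized intensity per probe, both on a linear scale. Limma is named, with no version, in the submitters' processing notes. Not given in the sources used here are the scanner and any background treatment before deposit. The normalized column equalled the deposited table that joins the samples (largest difference 0). One symbol was given for 21020 probes, several for 0 and none for 8902, and 11 member genes had 2 probes.

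Raw intensities were corrected with normexp (offset 50), quantile normalized over all 12 arrays in limma 3.58.1 (R 4.3.3), then log2 transformed. The model had 1 mean per group and 8 residual degrees of freedom, with Benjamini-Hochberg adjustment over 29922 probes at 0.05, and was tested on simulated data. Where no array of a group passed the threshold, the fold is a lower bound against the lowest signal above it on each array ("at least"), left out where that bound was under 1. The number of arrays limits the precision.

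Named were every called member with its other probes, the 4 Sdh genes, the paired complex IV isoforms, core subunits and, to limit the number, the 2 brightest probes of each complex. The members and all lists were chosen with earlier results of these data known. Alternatives were median scaling, a normexp offset of 16, no normexp, dim probes left out, array weights, and the replicate number as a block of fixed terms. Further alternatives were 1 probe per gene, normalization within a disease state, the deposited normalized intensity, a fit of the 6 compared arrays, and each array left out.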

Additional observations from a re-analysis of the deposited data

Results flagged for a closer look

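For 9 members the effect of mcIRBP differed between diabetic and normal mice by a test of the difference itself, in the limma model over all 12 arrays with adjustment over all probes. Of all probes, 4.84% were called below 0 and 4.27% above 0. Among the 10883 probes above the threshold on at least 3 arrays, 1352 were called below 0, with 9 of the 72 members there. The share of members called there lies near that of these probes, so it shows no excess of members among them. The difference, diabetic minus normal, is on the log2 scale. In complex I it was -2.82 for Ndufb9 (SE 0.54, adjusted p = 0.00814), -1.85 for Ndufs7, -1.27 for Ndufs1 (adjusted p = 0.0193), -0.88 for Ndufa5 (adjusted p = 0.011) and -0.68 for Ndufs3 (adjusted p = 0.0326). In complex II it was -2.53 for Sdhb (SE 0.48, adjusted p = 0.00831), and in complex III -1.40 for Uqcrc2 (adjusted p = 0.0387). In complex IV it was -2.12 for Cox5a (SE 0.42, adjusted p = 0.0103) and -2.01 for Cox8b (SE 0.31, adjusted p = 0.00237). Disease state, sex and the raw floor of the arrays cannot be told apart in these differences. In the same test 21 of 21 epididymis, 22 of 25 liver and 6 of 32 skeletal muscle markers were called above 0. Of the same lists and 2 others, 20 of 24 adipose, 5 of 8 macrophage and 2 liver markers were called below 0. The part of these markers was not tested.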

How the results depend on the processing

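Among the called members of the diabetic comparison, Sdhb, Cox8b, Cox6a1 and the called Sdhc probe passed under every alternative run that held the probe. Sdhd missed the threshold in 6 of 16, Uqcrc2 in 5 of 16, and Ndufs3 and Ndufa5 in 3 each. In normal mice Cox5a missed it in 8 of 16 and Ndufb9 in 10 of 16. For the difference between effects, Cox5a, Cox8b, Ndufb9, Ndufs7 and Sdhb passed in all 19, while Ndufs3 missed it in 11 and Uqcrc2 in 10. Arrays with fewer probes over the threshold limit what dim members can show. The cause of the changes below was not tested, except that dim probes left out means fewer probes tested. The share of all probes called, in either direction, follows each count in brackets. Members called in the diabetic comparison were 8 (6.77%), and numbered 32 (13.5%) with median scaling, 13 (18.6%) with dim probes left out, 49 (23.2%) with array weights, 36 (14.1%) with normalization within the disease state, 39 (14.6%) with the deposited normalized intensity and 39 (14.1%) in the fit of the 6 arrays. In normal mice they were 2 (6.17%), and numbered 4 (14.3%) with dim probes left out and 0 (0.976% to 2.06%) under the other 5 of these settings. For the difference they were 9 (9.11%), and 42 (21%) with median scaling. For diabetic mock against normal mock they were 5 (8.39%), and 74 (50.4%) with median scaling, 8 (10.6%) with the offset of 16, 9 (16.2%) with dim probes left out, 3 (5.7%) with array weights and 14 (9.35%) in the fit of the 6 arrays. For diabetic mcIRBP against normal mcIRBP they were 7 (11.6%), and 1 (4.7%) with median scaling, 13 (30.4%) with dim probes left out and 13 (12.7%) with array weights. Median scaling put the members' median at -1.37 in diabetic mice, 0.69 in normal mice, -2.14 for the difference and 2.04 for diabetic mock against normal mock. It reversed Ndufb4 for the difference (-1.80) and, for diabetic mock against normal mock, Cox7a2 (0.996), Ndufb4 (1.93), Sdha (1.54), Sdhc (1.83) and Sdhd (1.78). Another 58 values changed sign with no call on either side. With each array left out, the calls were 4 to 7 in diabetic mice (4 without diabetic mock 1 or 3) and 0 to 10 in normal mice (10 without normal mcIRBP 1, 4 without normal mock 3, 0 without normal mock 2). They were 7 to 14 for the difference (14 without normal mcIRBP 2) and 3 to 9 for the mock groups (3 without any 1 diabetic mock array, 9 without normal mock 1 or 3). They were 4 to 13 for the mcIRBP groups (4 without diabetic mcIRBP 2 or normal mcIRBP 3, 13 without normal mcIRBP 1, 11 without normal mcIRBP 2). The shares of all probes called in these fits moved too, from 4.27% to 5.54% in diabetic mice and 5.62% to 9.4% in normal mice. For the difference they ran from 6.36% to 11.5%, for the mock groups from 3.7% to 11.8%, and for the mcIRBP groups from 7.4% to 12%. Replicate numbers did not pair the arrays: the correlation of deviations from the group means ran from -0.34 to 0.25, and 4 of 18 pairs were over 0.1. With the replicate number as a block, the calls were 8 (5.85%) in diabetic mice, 0 (4.89%) in normal mice and 8 (7.93%) for the difference. They were 6 (6.16%) for the mock groups and 5 (9.87%) for the mcIRBP groups.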

Other observations

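The lists of other cell types not described above moved little, apart from macrophage markers. Of 8 macrophage markers, 5 fell in diabetic mcIRBP against diabetic mock (median -0.66), and 4 rose in normal mcIRBP against normal mock (median 0.65). Of 7 brown fat and 9 heart markers none was called in the diabetic comparison by limma, and the heart marker Myl4 rose in the normal comparison. The 1 brown fat marker called there was Ucp1, the uncoupling protein of brown fat, but its probe was below the threshold on all 12 arrays, as was that of Ucp3.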
